A study of Saccharomyces cerevisiae with 8 samples.

Results

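The 44 genes described here are GCN4 (YEL009C), the transcriptional activator of the general amino acid control of budding yeast, and 43 genes for enzymes of amino acid synthesis. They were taken as a fixed list of identifiers from a table of 11966 features, and all 44 were in the table and passed the filter on low values. The enzymes belong to the pathways of histidine (4 genes), leucine (3), isoleucine and valine (5), lysine (7), tryptophan (4), the shared aromatic branch (6), threonine and homoserine (5), serine (3), asparagine (2), glutamine (1) and proline (3). Arginine synthesis and the marker genes deleted in the strain were left out of the list. After removal of ribosomal RNA, total RNA was sequenced from Saccharomyces cerevisiae BY4741 (MATa his3Δ1 leu2Δ0 met15Δ0 ura3Δ0), and all 8 libraries share these 4 marker alleles, including the partial deletion of the histidine gene HIS3. The strain is therefore auxotrophic for histidine, leucine, methionine and uracil, and it was grown in rich YPD medium at 30 °C to an OD600 of 0.5. WT cells and cells carrying upf1*::kanMX4, a replacement of UPF1 by a drug resistance cassette, received either anisomycin (ANS) at 100 µg/ml or the same volume of its solvent DMSO for 30 min. The 4 groups are called by genotype and treatment (WT DMSO and WT ANS; upf1 DMSO and upf1 ANS), and each has 2 libraries, which the design text calls biological replicates. Whether the upf1 strain was 1 clone is not given in the sources used here.

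When an amino acid runs short, uncharged tRNA activates the kinase Gcn2, which phosphorylates the initiation factor eIF2. General initiation slows, while ribosomes that reinitiate late on the GCN4 mRNA bypass its inhibitory upstream reading frames and translate Gcn4, which then binds TGACTC-containing sites in promoters of biosynthetic genes. Anisomycin blocks peptide bond formation and so arrests translation elongation, and Upf1 is the RNA helicase at the centre of nonsense-mediated decay, which degrades mRNAs whose translation ends early. The libraries measure RNA only, so neither Gcn4 protein nor its translation was read.

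The upstream reading frames of GCN4 are shown because they are the known basis of its translational control. The 600 bases before the GCN4 start codon (R64, chromosome V, minus strand, coding sequence 138918 to 139763) hold 4 short reading frames, printed in gene direction with the start and stop codons in capitals.
uORF 1, chrV:140113-140124, 361 bases before the start codon: ATGgcttgcTAA
uORF 2, chrV:140048-140056, 293 bases before: ATGtgtTAA
uORF 3, chrV:139928-139939, 176 bases before: ATGtacccgTAG
uORF 4, chrV:139903-139914, 151 bases before: ATGtttccgTAA
uORF 2 has 2 codons before its stop, its start codon included, and the others have 3. The length that turns the deposited GCN4 values into whole reads was 1537 nt, against 846 nt of coding sequence.

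The core of the Gcn4 site, TGACTC, was searched on both strands from 250 bases before to 50 bases after each start codon. It was found for 25 of the 44 genes (56.8%) and for 479 of 6001 R64 genes (7.98%). In a window of 500 bases before the start codon, chosen after seeing the data, it was found for 30 of the 44 (68.2%), against 12.7% of 6000 genes. The sites of genes whose values are given below in every library are printed with 12 bases on either side, in gene direction, with the core in capitals (TGACTC, or GAGTCA where it lies on the other strand). The number of bases before the start codon is given with each.
LYS1 (YIR034C), minus strand, chrIX:420853-420882, 134 bases before: ttcagcgacaaaGAGTCAtaaagtcatcct
HIS4 (YCL030C), minus strand, chrIII:68515-68544, 199 bases before: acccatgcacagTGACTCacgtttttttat
HIS1 (YER055C), minus strand, chrV:265951-265980, 183 bases before: aagcttccaagtGAGTCAcctctaccgttg
HIS5 (YIL116W), plus strand, chrIX:142714-142743, 202 bases before: tcttggatctgtTGACTCacttcaattgat
HIS7 (YBR248C), minus strand, chrII:716678-716707, 230 bases before: caaaaaaaaattGAGTCAtatcgtagcttt
TRP4 (YDR354W), plus strand, chrIV:1184570-1184599, 165 bases before: acctacgcagatTGACTCtctaaaaaatga
LEU4 (YNL104C), minus strand, chrXIV:426838-426867, 101 bases before: cttacgtgtaagTGACTCagttctttcaaa
LEU9 (YOR108W), plus strand, chrXV:522758-522787, 257 bases before: ggtcgtagtgaaTGACTCatatttttccat
LEU1 (YGL009C), minus strand, chrVII:478936-478965, 301 bases before: cattactctagaTGACTCagtttagtctga
ARO4 (YBR249C), minus strand, chrII:718289-718318, 312 bases before: gttactgcgaaaTGACTCaacgatgaaatg
HOM3 (YER052C), minus strand, chrV:258224-258253, 283 bases before: ttttcaggcccaTGACTCaccttttctttc
ILV6 (YCL009C), minus strand, chrIII:105681-105710, 150 bases before: tcaccgttatcgTGACTCactttctttcgc
THR1 (YHR025W), plus strand, chrVIII:159325-159354, 101 bases before: aaatttgtgcaaGAGTCAtcatctcgaaaa
PRO3 (YER023W), plus strand, chrV:200870-200899, 194 bases before: gtgtaatatcctGAGTCActccttaaacct
ASN1 (YPR145W), plus strand, chrXVI:822381-822410, 227 bases before: tcatgtaacattTGACTCattctgtaaact
ASN2 (YGR124W), plus strand, chrVII:739735-739764, 197 bases before: ttttcttagcatTGACTCatggcaagattt
SER33 (YIL074C), minus strand, chrIX:222627-222656, 154 bases before: cacgctggaaacGAGTCAccgttatgaaaa
No core was found in the 500 bases before GCN4, SER3 (YER081W), LYS20 (YDL182W), LYS21 (YDL131W), ARO2 (YGL148W), ARO3 (YDR035W) or PRO1 (YDR300C). Those of HOM3, LEU1, LEU9 and ARO4 lie outside the shorter window. LYS1, HIS4 and HIS7 have more than 1 core in the shorter window, and HIS1 and HIS5 in the longer, of which 1 each is printed.

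The deposited value is a density in reads per nt, scaled between libraries in a way that matches the levels of 76 small nucleolar RNAs. From it, 6958585 to 12004301 reads per library were recovered, of which the 44 genes held 1.66% to 2.11%. A single gene of the list had between 198 reads (LYS1) and 26552 reads (ILV5) in a library. UPF1 (listed as NAM7) was at 2.39% of its WT level in upf1 DMSO and at 1.60% in upf1 ANS. LEU2 and URA3, which the strain lacks, had at most 2 reads in any library. Values are averages over a culture, so fewer cells that hold an RNA and less of it per cell cannot be told apart.

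The direction of a change depended on the scale. As deposited, 5578 of 5861 protein-coding genes rose under ANS in WT and 5556 in upf1, with median log2 changes of 1.72 and 1.43. Changes are therefore given mainly relative to protein-coding genes, after each library was brought to a common protein-coding level by the median ratio over these genes. The per-library values below, called scaled densities, are reads per nt on that common level. A gene rose or fell when its adjusted p, from limma with Benjamini-Hochberg adjustment over all 11579 features tested, was below 0.05. The SE is that of the fit, which has 2 libraries per group. Groups of 2 libraries often do not overlap on this scale. Under ANS 49.9% of all features lay wholly above DMSO and 26.5% wholly below in WT, and 37.0% and 35.8% in upf1. Against WT, upf1 lay wholly above for 43.8% and wholly below for 30.3% in DMSO, and for 37.0% and 21.3% under ANS.

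GCN4 mRNA was abundant before treatment, in the 95.3rd percentile of protein-coding genes by density in WT DMSO. Scaled densities in WT were 4.60 and 4.64 with DMSO and 4.43 and 4.73 with ANS. Those in upf1 were 5.94 and 6.33 with DMSO and 4.24 and 4.74 with ANS. The upf1 DMSO libraries stand above the other 6, which overlap among themselves. Relative to protein-coding genes GCN4 rose in upf1 DMSO by 0.41 ± 0.08 (SE; adjusted p = 0.00511). Under ANS it fell in upf1, with a change of -0.45 ± 0.08 (SE; adjusted p = 0.00406). In WT its change under ANS was -0.01 ± 0.08 (SE; adjusted p = 0.889), with a 95% interval of -0.20 to 0.17. The difference of these responses, upf1 minus WT, was -0.44 ± 0.11 (SE; adjusted p = 0.0489), close to the threshold. Leaving out any 1 of the 8 libraries ended this last call, with adjusted p from 0.0609 to 0.173. Between upf1 and WT under ANS the change was -0.03, which did not pass.
As deposited, GCN4 rose with ANS from 2.42 and 2.45 to 6.75 and 9.18 in WT and from 3.89 and 3.80 to 7.82 and 7.94 in upf1, log2 changes of 1.69 and 1.03. The protein-coding medians on that scale, 1.72 and 1.43, are close to the first and above the second. On a scale set by the more abundant coding genes, the WT value of GCN4 turned positive, at 0.22 (adjusted p = 0.0497, over the alternatives 0.0497 to 0.963). Its call in upf1 DMSO was lost when libraries were scaled on all features, with a value of 0.12 (adjusted p = 0.204, over the alternatives 0.00127 to 0.204).

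**Figure D1:**
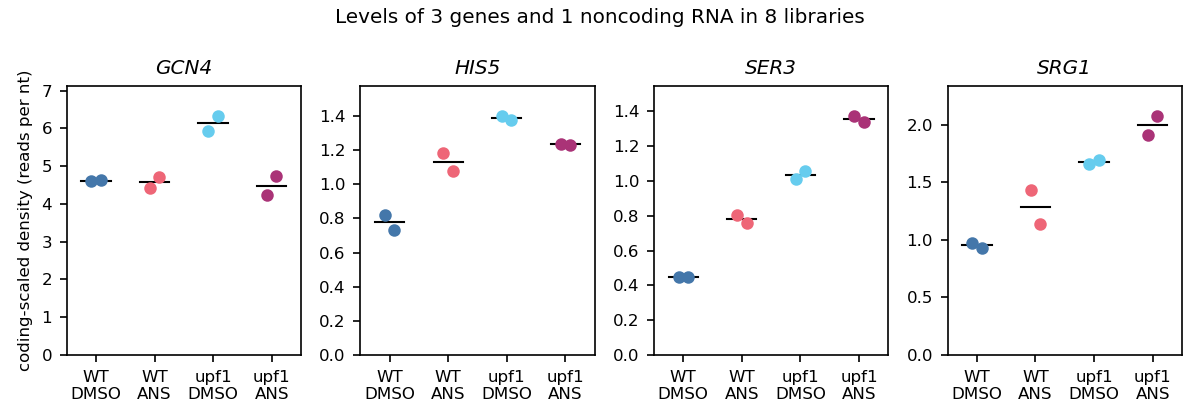
Scaled densities (reads per nt) of GCN4, HIS5, SER3 and the noncoding RNA SRG1 in the 8 libraries, as points, with the mean of each group as a bar. In all 4 panels both upf1 DMSO libraries lie above both WT DMSO libraries, and for SER3 the WT groups lie below the upf1 groups and, within each genotype, DMSO below ANS.

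Under ANS the enzyme genes did not move as a block. In WT, relative to protein-coding genes, 10 of the 44 rose, where 35.6% of all features rose, and 24 fell, where 19.4% of all features fell. The median change of the 44 was -0.33, against 0.07 for protein-coding genes and 0.28 for all features. In upf1, 8 rose (17.4% of all features) and 21 fell (18.4%), with a median of -0.21. As deposited, 42 of the 44 rose in WT and 42 in upf1 and none fell, where 90.2% and 88.7% of all features rose and 0.345% and 0.268% fell, with medians of 1.37 and 1.27. At an unadjusted limma p below 0.05 the falls on that scale also number 0. The comparisons in WT and in upf1 share no library, but both come from the fit to all 8 libraries and share its variance estimate. Of the 44, 20 genes fell in both, where 13.4% of all features did, and 8 rose in both, where 13.8% did. None was called in opposite directions, as were 2.02% of all features that rose in WT and fell in upf1 and 0.0432% the other way. HIS4 and HIS5 rose in WT and were not called in upf1, HIS1, ILV6, LYS4 and TRP2 fell in WT and were not called in upf1, and GCN4 fell in upf1 and was not called in WT. Of these 7, a difference between genotypes passed its own test for HIS5 and GCN4.
The count of genes that rose in WT was 6 when libraries were scaled on all features and 16 when scaled on coding genes above their median density, where 14 rose in upf1.

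**Figure D2:**
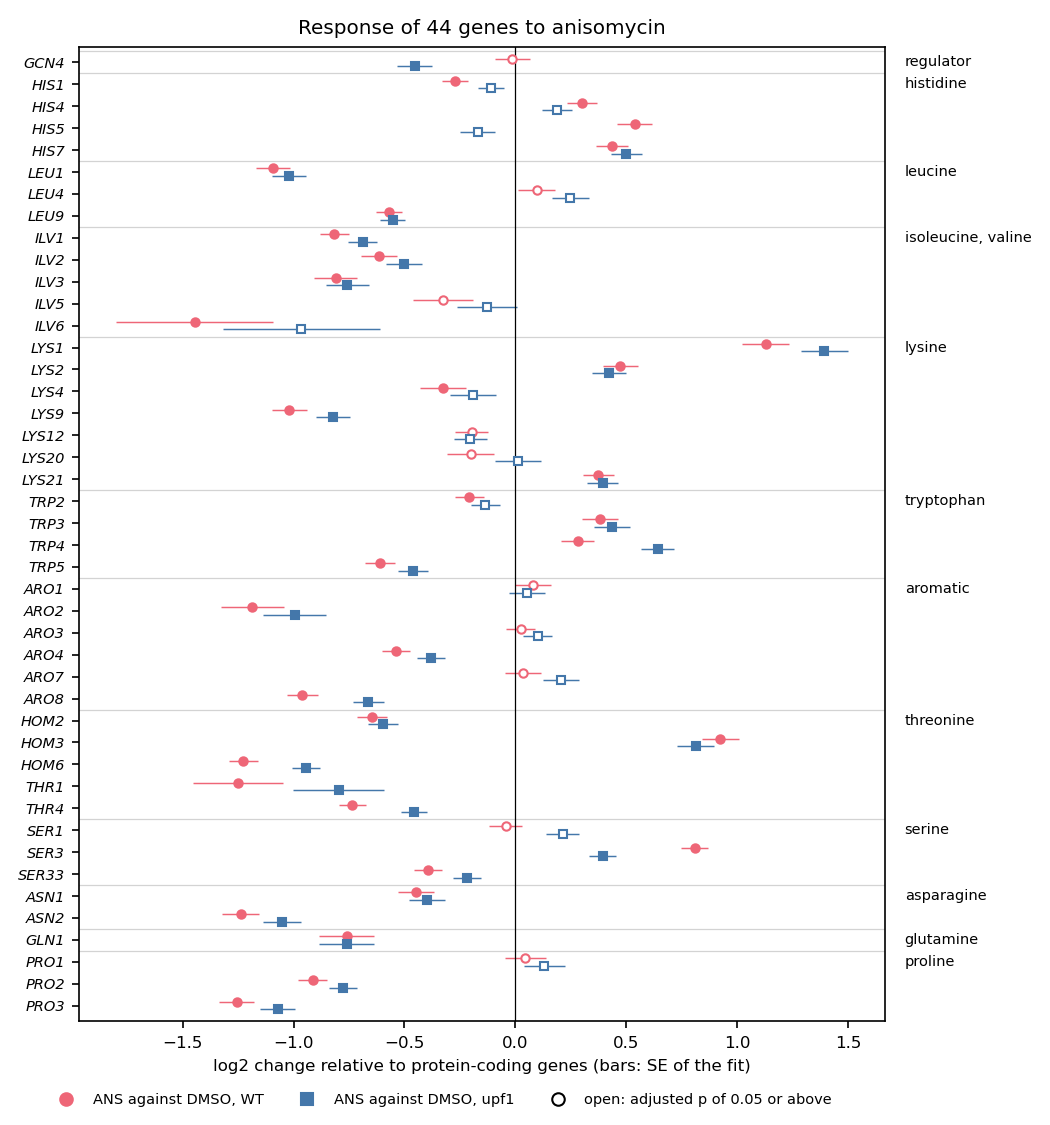
Log2 change under ANS relative to protein-coding genes for the 44 genes, by pathway, in WT (circles) and upf1 (squares), with bars for the SE of the fit and open symbols for an adjusted p of 0.05 or above. LYS1 (1.13 and 1.39) and HOM3 (0.92 and 0.81) lie farthest to the right in both genotypes, and the leucine, isoleucine and valine, asparagine, glutamine and proline genes lie mostly to the left.

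LYS1, HOM3 and SER3 had the largest rises in WT, and LYS1, HOM3 and TRP4 in upf1. LYS1 encodes saccharopine dehydrogenase, the last enzyme of lysine synthesis. It had a scaled density of 0.263 and 0.257 in solvent-treated WT and 0.549 and 0.597 in WT given the drug, and 0.252 and 0.233 in solvent-treated and 0.583 and 0.709 in drug-treated upf1. All 4 ANS libraries lie above all 4 DMSO libraries. The rise was 1.13 ± 0.11 (SE; adjusted p = 0.000158) in WT and 1.39 ± 0.11 (SE; adjusted p = 0.000143) in upf1.
HOM3 encodes aspartate kinase, the entry enzyme of threonine and methionine synthesis. Its scaled density went from 1.07 and 1.20 to 2.19 and 2.12 in WT and from 1.09 and 1.05 to 1.77 and 1.98 in upf1, again without overlap between treatments. These are rises of 0.92 ± 0.08 (SE; adjusted p = 0.000129) and 0.81 ± 0.08 (SE; adjusted p = 0.000410).
TRP4, which encodes anthranilate phosphoribosyl transferase, had 0.682 and 0.667 in WT without ANS, 0.785 and 0.857 in WT with it, 0.606 and 0.621 in upf1 without and 0.914 and 1.01 with it. Both ANS groups lie above both DMSO groups, and the rise was 0.28 in WT and 0.64 ± 0.08 (SE; adjusted p = 0.000731) in upf1. The WT rise lost its call without WT DMSO replicate 2 (0.27, adjusted p = 0.0645) and without WT ANS replicate 2 (0.23, adjusted p = 0.0687), over all alternatives from 0.11 to 0.51 with adjusted p = 0.00120 to 0.282. Its difference between genotypes, 0.36, did not pass (adjusted p = 0.0762).

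Of the 4 histidine genes 3 rose and 1 fell under ANS in WT, where 35.6% of all features rose and 19.4% fell. In upf1 1 rose and none fell, where 17.4% and 18.4% of all features did (0 falls also at an unadjusted limma p below 0.05). HIS4, a multifunctional enzyme of several steps of the pathway, had 1.99 and 1.88 with DMSO and 2.33 and 2.43 with ANS in WT, a rise of 0.30 ± 0.07 (SE; adjusted p = 0.00783). In upf1 it had 1.64 and 1.52 with DMSO and 1.76 and 1.83 with ANS, and the change of 0.19 did not pass. HIS7, the glutamine amidotransferase and cyclase of the pathway, rose in both genotypes. Its scaled density was 0.598 and 0.559 (solvent) against 0.805 and 0.762 (ANS) in WT, and 0.423 and 0.401 against 0.595 and 0.572 in upf1, with rises of 0.44 and 0.50. WT DMSO and upf1 ANS overlap, with upf1 DMSO lowest and WT ANS highest. HIS1, which catalyses the first step, fell in WT by 0.27 on the log2 scale, from 4.70 and 4.58 to 3.79 and 3.90. In upf1 HIS1 had 3.22 and 3.27 with DMSO and 2.95 and 3.06 with ANS, a change of -0.11 that did not pass.
Of the 7 lysine genes, LYS1, LYS2 (aminoadipate reductase; 0.47 and 0.42) and LYS21 rose in both genotypes. LYS9, which acts just before LYS1, fell in both (-1.02 and -0.82), and LYS4 fell in WT (-0.33). LYS12 and LYS20 passed in neither. Of the 4 tryptophan genes, TRP3 rose with TRP4 in both genotypes (0.38 and 0.44), while TRP5, the tryptophan synthase, fell in both (-0.61 and -0.46). TRP2 fell in WT at -0.21. On the scale of the more abundant coding genes the TRP2 value turned to 0.026 (adjusted p = 0.757, over the alternatives 0.00649 to 0.757).

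In the leucine, isoleucine and valine, aromatic, asparagine, glutamine and proline groups every called gene fell, in both genotypes. Of all features 35.6% rose and 19.4% fell in WT, and 17.4% and 18.4% in upf1. PRO3, the last enzyme of proline synthesis, had 3.40 and 3.33 in solvent-treated WT and 1.34 and 1.47 in WT given the drug, and 2.37 and 2.59 in solvent-treated and 1.13 and 1.23 in drug-treated upf1. All ANS libraries lie below all DMSO libraries, and the change was -1.26 ± 0.08 (SE; adjusted p = 4.03e-05) in WT and -1.07 ± 0.08 (SE; adjusted p = 0.000132) in upf1. PRO2 fell with it (-0.91 and -0.78), while PRO1, glutamate kinase and the first step, had changes of 0.04 and 0.13 that did not pass.
LEU1, the isomerase of leucine synthesis, went from 5.67 and 5.35 to 2.56 and 2.61 in WT and from 4.60 and 4.23 to 2.28 and 2.07 in upf1. These falls are -1.09 ± 0.08 (SE; adjusted p = 5.47e-05) and -1.02 ± 0.08 (SE; adjusted p = 0.000142), without overlap between treatments.
Among the isoleucine and valine genes 4 of 5 fell in WT (19.4% of all features) and 3 of 5 in upf1 (18.4%). ILV1, ILV2 and ILV3 fell in both, at changes from -0.82 to -0.50. ILV5, the most abundant gene of the list, had -0.33 and -0.13, which did not pass. ILV6, the regulatory subunit of acetolactate synthase, had the largest fall in WT and the widest spread. It had 2.34 and 1.38 in WT without ANS, 0.476 and 0.908 in WT with it, 1.10 and 1.35 in upf1 without and 0.523 and 0.740 with it. The treatments do not overlap within a genotype, although the replicates of each WT group differ widely. The WT change was -1.45 ± 0.35 (SE; adjusted p = 0.0112), and it lost its call without WT DMSO replicate 1 (-1.06, adjusted p = 0.0617) and without WT ANS replicate 1 (-0.97, adjusted p = 0.0636), over all alternatives from -1.90 to -0.97 with adjusted p = 0.00666 to 0.0636.
THR1, homoserine kinase, had 2.84 and 2.55 (solvent) against 0.996 and 1.28 (ANS) in WT, and 1.70 and 2.21 against 0.931 and 1.33 in upf1. The groups do not overlap between treatments of a genotype. The changes were -1.25 ± 0.20 (SE; adjusted p = 0.00183) and -0.80 ± 0.20 (SE; adjusted p = 0.0202), and the second lost its call without upf1 DMSO replicate 2 (-0.60, adjusted p = 0.119) and without upf1 ANS replicate 1 (-0.55, adjusted p = 0.104), over all alternatives from -1.06 to -0.55 with adjusted p = 0.0101 to 0.119. HOM6, HOM2 and THR4 fell in both genotypes, so that in the threonine pathway HOM3 alone rose and the 4 downstream genes fell. The shares of all features in WT and upf1 were 35.6% and 17.4% for rises and 19.4% and 18.4% for falls.
In the shared aromatic branch ARO2, chorismate synthase, had the largest fall, from 3.39 and 2.78 to 1.18 and 1.55 in WT and from 1.89 and 2.01 to 1.00 and 0.952 in upf1. The changes were -1.19 and -0.99, again without overlap. ARO8, an aromatic aminotransferase, and ARO4 fell in both genotypes, and ARO1, ARO3 and ARO7 passed in neither. GLN1, glutamine synthetase, fell in both, at -0.76 and -0.76.

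Most of these genes are abundant, and abundant mRNAs as a whole were lower under ANS on this scale. By level in WT DMSO the 44 lay between the 48.6th percentile of protein-coding genes (LYS1) and the 98.2nd (ILV5). When coding genes were divided into 10 bins by mean density, 25 of the 44 fell in the highest bin and 15 in the next. In WT the median change of all coding genes was -0.86 in the highest bin, where the 25 had a median of -0.62, and -0.46 in the next, where the 15 had a median of 0.03. In upf1 the bin medians were -0.66 and -0.29, beside -0.46 and -0.13 for the listed genes. In WT 18 of the 25 and 11 of the 15 lay above the coding median of their bin, and in upf1 15 and 11. Across the 44 genes the Spearman correlation of the WT DMSO level with the change under ANS was -0.67 in WT and -0.65 in upf1. This is a description over genes that share the same libraries, and in WT the level is also a term of the change. What part of the falls goes with abundance was not tested.
Enzyme genes with and without the TGACTC core overlapped widely in their ANS change. In WT, where 35.6% of all features rose and 19.4% fell, 7 of the 25 with a core in the shorter window rose and 13 fell, with a median of -0.27. Of the 18 without, 3 rose and 11 fell, with a median of -0.55. In the longer window the medians were -0.36 for 30 genes with a core and -0.33 for 13 without, so the order turned with the window.

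**Figure D3:**
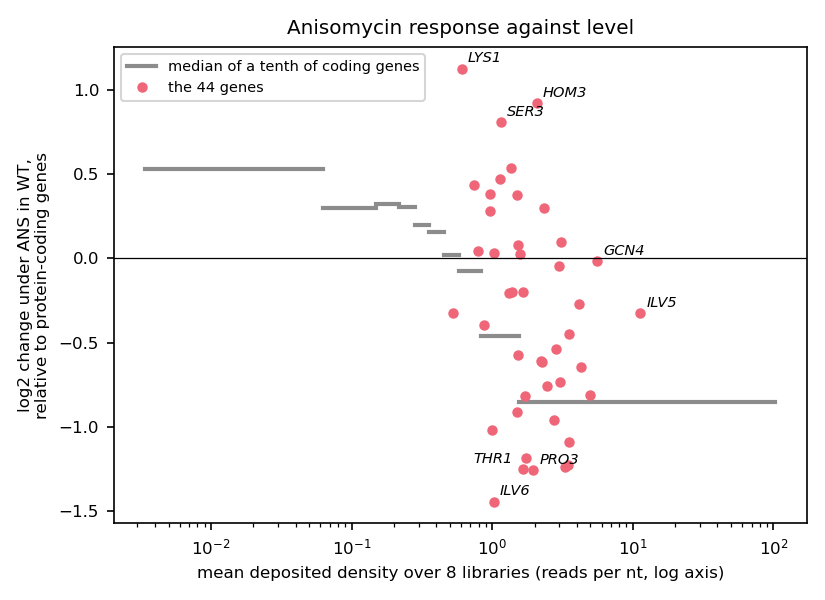
Log2 change under ANS in WT, relative to protein-coding genes, against the mean deposited density over the 8 libraries (reads per nt, log axis). Points are the 44 genes and grey bars the medians of protein-coding genes in 10 bins of density, which go down to -0.86 in the highest bin; LYS1, HOM3 and SER3 lie above the bars of their range and ILV6, THR1 and PRO3 below.

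The 5 isozyme pairs of the list are given by the ratio of their partners, written so that it is higher under ANS. In all 5 the ANS and DMSO libraries did not overlap in either genotype and the direction was the same in both. This also held for 60.8% of all pairs of the 5718 tested coding genes above 0 in every library, so the count says nothing particular to isozymes. The ratio of partners within a library does not depend on how libraries are scaled, and it shows unequal change, not which partner moved. SER3 and SER33 encode 3-phosphoglycerate dehydrogenase, the first step of serine synthesis. The SER3 to SER33 density ratio was 0.438 and 0.424 in solvent-treated WT and 1.01 and 0.983 in WT given the drug, and 1.37 and 1.42 in solvent-treated and 2.11 and 2.16 in drug-treated upf1, so the 4 groups are separate and SER3 became the more abundant partner in both upf1 groups.
ASN1 and ASN2 are the asparagine synthetases. Their ratio was 0.731 and 0.738 in WT without ANS, 1.27 and 1.28 in WT with it, 0.852 and 0.753 in upf1 without and 1.32 and 1.20 with it. ASN2 was the more abundant partner in all 4 DMSO libraries and ASN1 in all 4 ANS libraries. Scaled densities of ASN2 went from 5.88 and 5.47 to 2.27 and 2.54 in WT and from 4.04 and 4.23 to 1.90 and 2.08 in upf1, changes of -1.24 ± 0.08 (SE; adjusted p = 5.1e-05) and -1.05 ± 0.08 (SE; adjusted p = 0.000175). Those of ASN1 went from 4.30 and 4.04 to 2.87 and 3.25 and from 3.45 and 3.18 to 2.52 and 2.51, changes of -0.45 and -0.40, so both partners fell.
LEU4 and LEU9 encode the isopropylmalate synthases that start leucine synthesis. Their ratio was 1.56 and 1.55 (solvent) against 2.27 and 2.69 (ANS) in WT, and 1.24 and 1.28 against 2.08 and 2.34 in upf1, higher in every ANS library. LEU9 fell from 1.69 and 1.66 to 1.16 and 1.10 in WT and from 1.81 and 1.81 to 1.23 and 1.23 in upf1, changes of -0.57 and -0.55. LEU4 had 2.65 and 2.57 in solvent-treated WT and 2.64 and 2.94 in WT given the drug, and 2.25 and 2.31 in solvent-treated and 2.56 and 2.87 in drug-treated upf1, and passed in neither genotype, with changes of 0.10 and 0.25.
LYS20 and LYS21 are the homocitrate synthases at the head of lysine synthesis. The LYS21 to LYS20 ratio was 0.628 and 0.673 in WT without ANS, 1.04 and 0.906 in WT with it, 0.741 and 0.795 in upf1 without and 0.972 and 1.03 with it. LYS21 rose, from 1.26 and 1.17 to 1.62 and 1.53 in WT and from 0.942 and 0.883 to 1.22 and 1.18 in upf1, changes of 0.37 and 0.39. LYS20 had 2.01 and 1.73 (solvent) against 1.56 and 1.69 (ANS) in WT, and 1.27 and 1.11 against 1.26 and 1.14 in upf1, where treatments overlap in upf1.
ARO3 and ARO4 encode the DAHP synthases that open the aromatic pathway, inhibited by phenylalanine and by tyrosine respectively. Their ratio was 0.400 and 0.400 in solvent-treated WT and 0.591 and 0.592 in WT given the drug, and 0.458 and 0.441 in solvent-treated and 0.636 and 0.620 in drug-treated upf1. ARO4 fell, from 3.45 and 3.51 to 2.30 and 2.49 in WT and from 2.72 and 2.72 to 2.10 and 2.08 in upf1, changes of -0.54 and -0.38. ARO3 had 1.38 and 1.40 in solvent-treated WT and 1.36 and 1.47 in WT given the drug. In upf1 it had 1.25 and 1.20 with DMSO and 1.34 and 1.29 with ANS. Its changes under ANS of 0.02 and 0.10 did not pass, but it fell in upf1 DMSO against WT (-0.19, adjusted p = 0.0492).
The coding sequences of a pair are 63.7% (ARO3 and ARO4) to 88.2% (LYS20 and LYS21) identical, and the longest run of identical bases is 17 to 278 nt in these same pairs. How reads that match both partners were counted is not given in the sources used here, so the values of LYS20 and LYS21 carry the largest uncertainty of this kind.

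**Figure D4:**
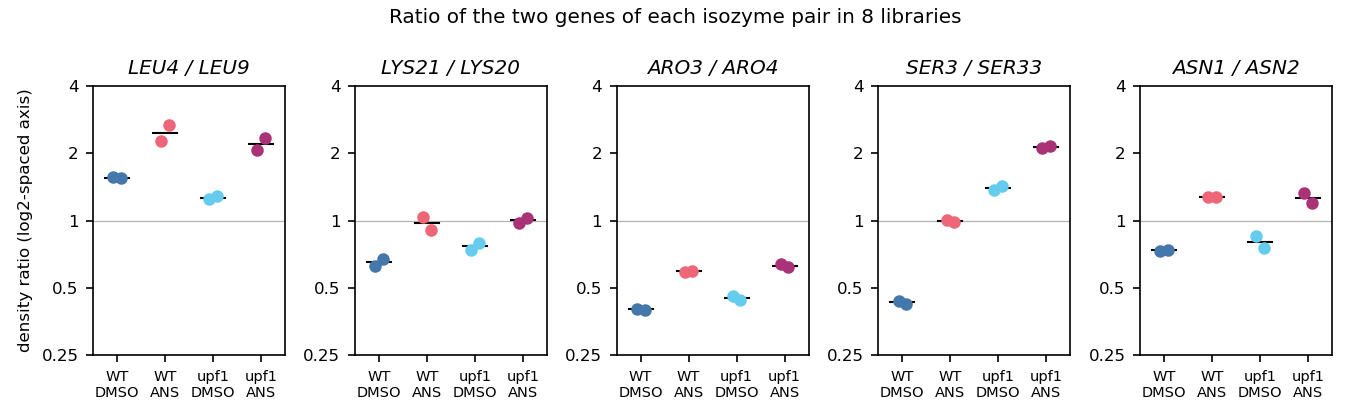
Ratio of the densities of the partners of 5 isozyme pairs in each of the 8 libraries (log2-spaced axis), as points, with the mean of the log2 ratio of each group as a bar. In every pair both ANS libraries of a genotype lie above both DMSO libraries of that genotype.

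Loss of Upf1 in DMSO went with a rise of 3 genes of the list, SER3, HIS5 and GCN4, and a small fall of many others. Relative to protein-coding genes 3 of 44 rose, where 30.9% of all features rose, and 29 fell, where 16.4% of all features fell. The median change was -0.33, against -0.13 for protein-coding genes. The bin medians of coding genes were -0.34 in the highest density bin and -0.26 in the next, beside -0.34 and -0.17 for the listed genes. Of the listed genes 13 of 25 and 10 of 15 lay above these bin medians, so they fell no more than coding genes of like density there. In the 2 bins below, the 3 and 1 listed genes were lower (-0.48 against -0.21 and -0.31 against -0.17). As deposited the same 3 genes rose (31.6% of all features) and none fell (0.613%; 0 also at an unadjusted limma p below 0.05), with a median of -0.08. The 29 falls went down to 14 when libraries were scaled on the more abundant coding genes, to 16 when the fit used the 4 DMSO libraries alone, to 18 without WT DMSO replicate 1 and to 19 without upf1 DMSO replicate 2. The 3 rises were called in each of the 8 fits without 1 library.
SER3 had a scaled density of 0.446 and 0.446 in WT and 1.01 and 1.05 in upf1 with DMSO, a rise of 1.20 ± 0.06 (SE; adjusted p = 2.33e-05). With ANS it had 0.807 and 0.760 in WT and 1.37 and 1.34 in upf1. The 4 groups do not overlap, and SER3 also rose under ANS in both genotypes, by 0.81 in WT and 0.39 in upf1. As deposited, SER3 rose in upf1 DMSO by 1.45.
Its partner SER33 moved the other way. It had 1.02 and 1.05 in WT without ANS, 0.800 and 0.774 in WT with it, 0.739 and 0.741 in upf1 without and 0.652 and 0.620 with it, with every upf1 library below every WT library. The change in upf1 DMSO was -0.48 ± 0.06 (SE; adjusted p = 0.000803).
SER3 is known for SRG1, a noncoding RNA whose transcription across the SER3 promoter represses SER3. SRG1 (chrV:322212-322762, plus strand) overlaps the first 77 nt of SER3 on the same strand, and how reads in the overlap were assigned is not given in the sources used here. SRG1 had 0.976 and 0.928 (solvent) against 1.43 and 1.14 (ANS) in WT, and 1.65 and 1.69 against 1.91 and 2.08 in upf1. It rose in upf1 DMSO by 0.81 ± 0.11 (SE; adjusted p = 0.000985) and in upf1 ANS by 0.64, and under ANS it rose in WT by 0.43, whereas the change in upf1 of 0.25 did not pass. SER3 and SRG1 thus rose together in upf1, and the part of the overlap in this was not tested.
HIS5, histidinol phosphate aminotransferase, had 0.821 and 0.733 in WT and 1.40 and 1.38 in upf1 with DMSO, a rise of 0.84 ± 0.08 (SE; adjusted p = 0.000189). With ANS it had 1.18 and 1.08 in WT and 1.24 and 1.23 in upf1. The 4 groups do not overlap, with WT DMSO the lowest and upf1 DMSO the highest. The ANS response was 0.54 in WT and -0.17 in upf1, the latter not passing. The other 3 histidine genes fell in upf1 DMSO.
The largest falls in upf1 DMSO were those of ARO2, LYS20 and HIS1, at -0.65 ± 0.14 (SE; adjusted p = 0.00838), -0.65 ± 0.10 (SE; adjusted p = 0.00224) and -0.52 ± 0.06 (SE; adjusted p = 0.000485). HIS1 shows no overlap, with both upf1 groups below both WT groups, and for ARO2 and LYS20 the upf1 DMSO libraries are below the WT DMSO libraries given above. All 3 proline genes and both asparagine genes fell as well, and of the 7 lysine genes LYS4, LYS20 and LYS21 fell (16.4% of all features).

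**Figure D5:**
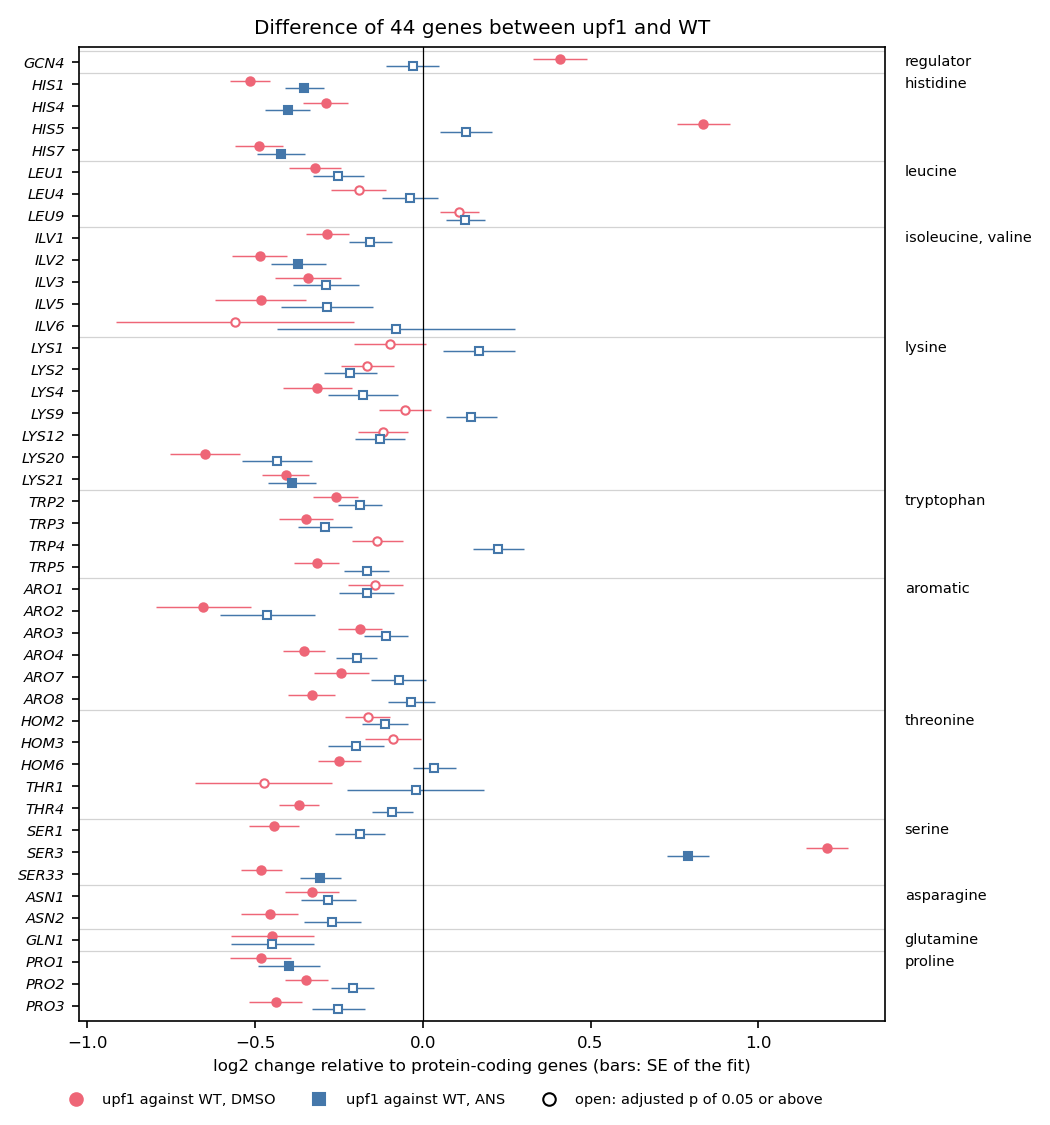
Log2 difference between upf1 and WT, relative to protein-coding genes, for the 44 genes in DMSO (circles) and under ANS (squares), with bars for the SE of the fit and open symbols for an adjusted p of 0.05 or above. SER3 (1.20 and 0.79), HIS5 (0.84 and 0.13) and GCN4 (0.41 and -0.03) are on the right in DMSO, and most other genes lie slightly to the left.

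Under ANS fewer differences between upf1 and WT passed. The median change of the 44 was -0.19, against -0.04 for protein-coding genes. Of the 44, 31 lay wholly below WT (21.3% of all features) and 5 wholly above (37.0%). The listed genes had medians of -0.20 in the highest density bin and -0.13 in the next, beside -0.14 and -0.08 for coding genes. Of the listed genes 8 of 25 and 7 of 15 lay above these bin medians. SER3 rose (1 of 44, where 5.41% of all features rose), by 0.79 ± 0.06 (SE; adjusted p = 0.00374), and 7 genes fell (1.93% of all features), namely HIS7, HIS4, PRO1, LYS21, ILV2, HIS1 and SER33. The largest of these were -0.42 ± 0.07 (SE; adjusted p = 0.0188) for HIS7, -0.40 ± 0.07 (SE; adjusted p = 0.0183) for HIS4 and -0.40 ± 0.09 (SE; adjusted p = 0.0467) for PRO1. PRO1 had 0.793 and 0.752 in solvent-treated WT and 0.855 and 0.743 in WT given the drug, and 0.556 and 0.547 in solvent-treated and 0.640 and 0.569 in drug-treated upf1, with all upf1 libraries below all WT libraries. None of the 7 falls was called in the fit to the 4 ANS libraries alone, nor without either WT ANS library or either upf1 ANS library. Without either upf1 DMSO library 2 falls were called, and 22 were called when libraries were scaled on all features. As deposited, SER3 rose (2.69% of all features) and none fell (0.216%), with 5 lower at an unadjusted limma p below 0.05.

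The response to ANS differed between the genotypes for 3 genes, HIS5, GCN4 and SER3. In each the response was lower in upf1, where 10.4% of all features had a lower and 0.717% a higher response, and no gene of the list had a higher one (5 at an unadjusted limma p below 0.05). The difference, upf1 minus WT, was -0.71 ± 0.11 (SE; adjusted p = 0.00965) for HIS5, -0.44 for GCN4 and -0.42 ± 0.09 (SE; adjusted p = 0.0276) for SER3. These are the same 3 genes that were higher in upf1 DMSO, and both comparisons use the same DMSO libraries. The balance depended on the scale. With libraries scaled on all features, 1 response was lower in upf1 (HIS5, -0.56, adjusted p = 0.0332) and 4 were higher (TRP4, ARO8, HOM6 and THR4, at 0.42 to 0.51), while GCN4 and SER3 lost their calls (-0.29 and -0.27, adjusted p = 0.103 and 0.0956, over all alternatives 0.0261 to 0.173 and 0.0105 to 0.126). As deposited HIS5 passed at -0.92 ± 0.20 (SE; adjusted p = 0.0218), where 8.36% of all features had a lower and 0.19% a higher response. Without 1 library, 0 to 2 of the 3 differences passed: HIS5 lost its call without either upf1 DMSO library (adjusted p = 0.0542 and 0.0513, over all alternatives from 0.00504 to 0.0542) and SER3 without any 1 library except WT ANS replicate 2.

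Other genes of amino acid metabolism, from lists that were chosen with earlier results of these data known, moved in part differently. The 17 further enzymes come from the pathways above and from others of amino acid metabolism. Of them 4 rose and 10 fell under ANS in WT, where 35.6% of all features rose and 19.4% fell, with a median of -0.53. In upf1 4 rose and 9 fell, beside 17.4% and 18.4% of all features. The largest changes in WT were those of ARO9, an aromatic aminotransferase (0.720 and 0.777 without and 6.09 and 6.13 with ANS; 3.02), GDH1, the NADP-dependent glutamate dehydrogenase (4.74 and 3.80 without and 1.22 and 1.35 with ANS; -1.72), and GDH3, its paralogue (-0.89). In upf1 DMSO 1 of the 17 rose and 10 fell, where 30.9% of all features rose and 16.4% fell. Of these LYS5 rose (0.84), and ALT1 (-0.58) and BAT2 (-0.52) fell the most.
All 10 genes of arginine synthesis rose under ANS in WT, where 35.6% of all features rose, with a median of 1.31. In upf1 7 of them rose, where 17.4% of all features rose. ARG3, ornithine carbamoyltransferase, had the largest rise in WT (3.55), followed by ARG4 (2.50). In WT, ARG3 had 0.0219 and 0.0202 without and 0.297 and 0.268 with ANS. Its DMSO values are low, beside a pseudocount of 0.00340. In upf1 DMSO 7 of the 10 rose (30.9% of all features), led by CPA1 (1.58).
Regulators of the general control gave mixed calls, with 3 of 16 rising and 6 falling under ANS in WT, beside 35.6% and 19.4% of all features. YIH1, an inhibitor of Gcn2 activation, fell by 1.17 on the log2 scale. It had 0.375 and 0.229 without and 0.110 and 0.150 with ANS in WT, so the replicates of each group differ widely. The eIF2 subunits SUI3 and GCD11 fell too (-0.96 and -0.72). The cyclin PCL5, which directs the breakdown of Gcn4, was the 1 member of this list that rose in upf1 DMSO (0.593 and 0.687 in WT and 0.948 and 0.898 in upf1; 0.53 ± 0.10 (SE; adjusted p = 0.00377)), and 10 of the 16 fell, where 30.9% of all features rose and 16.4% fell. Of 10 further transcriptional regulators of nitrogen and amino acid genes 7 rose under ANS in WT (35.6% of all features) and 7 in upf1 (17.4%), and none fell (19.4% and 18.4%; 1 in each genotype at an unadjusted limma p below 0.05). RTG3, a regulator of the retrograde response, rose the most in WT (1.19), followed by LYS14, the activator of lysine genes (1.12), and ARO80, the activator of ARO9 (0.89). In upf1 under ANS, where 5.41% of all features rose and 1.93% fell against WT, 2 of the 10 arginine genes rose, 1 of the 17 further enzymes fell, and none of either list of regulators was called (6 of 16 and 2 of 10 lower at an unadjusted limma p below 0.05). The response to ANS was lower in upf1 for ARG3 (-1.13), 3 other arginine genes and PCL5 (-0.53), where 10.4% of all features had a lower response. It was higher for ALT1 (0.62), as for 0.717% of all features. The ARG3 difference rests in part on the low WT DMSO values given above.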

How the data were processed

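Total RNA was measured in 8 libraries of 4 groups, with libraries prepared by a stranded kit, per the labels' protocols. The submitters' processing notes name build R64 and the tools DESeq2, featureCounts 2.0.0, HISAT2 2.2.0 and Trim Galore, without the role of each. The deposited values are normalized densities (signal in reads per nt), for 11966 features. Multiplied by a length between 20 and 20000 nt and divided by a factor for each library, the densities gave whole reads for 100.0% of features above 0 (tolerance 1e-05), and these factors matched 76 small nucleolar RNAs within ratios of 0.997 to 1.004. Reads recovered this way served for depth, not for tests. Spike-in RNA named in the labels was not used here.

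Densities were tested with limma 3.58.1 (R 4.3.3) as log2(density + 0.00340), with a pseudocount at the 5th percentile of the non-zero values, so fold changes of low genes are understated. All 8 libraries entered 1 fit with 1 mean per group and a variance trend, on the densities as deposited and after scaling each library by the median ratio of protein-coding genes. Features with a mean at or above the pseudocount were tested (11579, with 387 left out), two-sided, with Benjamini-Hochberg adjustment at 0.05 over all of them. The fit has 4 residual degrees of freedom (median 7.23 after moderation), and the code was tested on simulated data. Full values are given for GCN4, both genes of each isozyme pair, and the 3 largest rises and falls past the threshold in each comparison; of each further list, up to 3 genes with the largest changes are named, and 1 gene that this rule picks is not reported here. The 44 genes and the lists were chosen with earlier results of these data known. Promoter and reading frame sequences were read from the NCBI RefSeq R64 genome. Alternatives changed the pseudocount, filter, scaling, libraries in the fit and replicate pairing, and left out each library in turn.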

Additional observations from a re-analysis of the deposited data

Results flagged for a closer look

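The response to ANS differed between upf1 and WT by a test of the difference itself for 3 of the 44 genes, each with a lower response in upf1. For HIS5 the difference was -0.71 relative to protein-coding genes and -0.92 as deposited. The level of HIS5 in WT DMSO was below that of the other 3 groups. GCN4 had a difference of -0.44 relative to protein-coding genes, and SER3 had -0.42. As deposited neither passed (adjusted p = 0.0788 for GCN4 and 0.0901 for SER3). All 3 values rest on the same upf1 DMSO libraries, in which these genes were higher than in WT DMSO.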

How the results depend on the processing

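Of 6512 values of the 44 genes under an alternative, 6204 kept direction and call, 213 lost a call, 92 gained one and 3 reversed. Those that reversed are LEU9 in upf1 DMSO scaled on all features (-0.18, adjusted p = 0.0457, over its alternatives 0.00857 to 0.400), and, scaled on coding genes above their median density, GCN4 (0.22) and TRP2 (0.026) under ANS in WT. Counts relative to protein-coding genes that moved over 1.5 times were, scaled on all features, 6 rises under ANS in WT, 22 falls in upf1 under ANS, and 4 higher and 1 lower responses in upf1. Scaled on coding genes above their median density they were 16 rises under ANS in WT, 14 rises under ANS in upf1 and 14 falls in upf1 DMSO. With only the libraries compared, 16 falls were left in upf1 DMSO and 0 in upf1 under ANS, and as deposited 1 fall in upf1 DMSO was called. With a mean density of at least 10 times the pseudocount, 2 responses as deposited were lower in upf1. The cause was not tested. Without 1 library, relative to protein-coding genes, falls in upf1 DMSO numbered 18 to 28, falls in upf1 under ANS 0 to 8 and lower responses in upf1 0 to 2. As deposited the ranges were 0 to 2 falls in upf1 DMSO, 0 to 2 rises and 0 to 2 falls in upf1 under ANS, and 0 to 3 lower responses. A lone library left in a group is assumed to vary like the others.

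Replicate differences correlated weakly between groups (from -0.05 to 0.17, highest between upf1 DMSO and upf1 ANS). This cannot show whether same-numbered libraries were handled together. With the replicate block, 10 genes rose and 25 fell under ANS in WT, 10 and 22 under ANS in upf1, while against WT 3 rose and 27 fell in upf1 DMSO, then 1 and 6 under ANS, relative to protein-coding genes. With 2 libraries per group, small differences between genotypes are at the limit of what these data can show.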
